A study of Mus musculus with 8 samples.

Results

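The genes described here make sterols and fatty acids or control that synthesis. They were chosen by name: 31 genes were listed, 30 of them have a row among the 48490 genes of the table, and 29 reached the level at which genes were tested, against 12888 tested genes in all. Mvd was not analysed here. Stard4, a carrier of cholesterol between membranes, has a row but was not tested.

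RNA was measured in pools of 70 tdTomato-positive cells picked by hand from the proximal tibia of mice at postnatal day 5. All groups carried Col10a1Cre, a Cre recombinase driven by a collagen gene of hypertrophic chondrocytes (the swollen cells of the growth plate), and the Rosa26-Tdtomato reporter that the Cre switches on. The 4 LoF (loss of function) libraries carried in addition the Ctnnb1 deletion on both alleles (Ctnnb1Δ/Δ), the 2 GoF (gain of function) libraries carried Ctnnb1-exon3 Δ/+, and the 2 WT libraries carried the Cre and the reporter alone. Ctnnb1 encodes β-catenin, which relays canonical Wnt signals, and the protein without the stretch of exon 3 escapes degradation. The tdTomato label marks cells that expressed the Cre and cells descended from them, so each pool can hold more than 1 cell type. Whether the libraries of a group stem from different animals is not in the labels, so the p-values speak only of the scatter among these libraries, which could be technical.

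Cells build cholesterol from acetyl-CoA through mevalonate, farnesyl diphosphate, squalene and lanosterol. They build palmitate from acetyl-CoA through malonyl-CoA, then desaturate and lengthen it. The transcription factors SREBP1 and SREBP2 (genes Srebf1 and Srebf2) switch on both branches: Scap escorts them from the endoplasmic reticulum to the Golgi, where they are cleaved, and Insig1 holds Scap back when sterols are plentiful. In the growth plate, cholesterol is attached to Hedgehog ligands, and desaturases supply the monounsaturated lipid that Wnt ligands carry.

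The libraries differed in more than these genes. FPKM (fragments scaled by transcript length and library total) summed to 293194 to 382101 per library, with 12587 to 13944 genes above 0, and read totals are unknown, so no counting error can be given. Ctnnb1 was at 67.3 to 81.1 FPKM in LoF, 72.0 and 86.7 in GoF and 137 and 146 in WT, and Axin2, a Wnt target, was at 5.26 and 2.81 in GoF and listed at 0 in every LoF library. Summed FPKM of 12 adipocyte markers was 525 to 829 in LoF, 0.809 and 4.44 in GoF and 19.5 and 117 in WT, with Cidec, Cfd, Retn and Lep at 0 in all 8 libraries. Of the 7 tested, 5 were lower in GoF than in LoF, against 5.68% of all tested genes. Summed FPKM of 12 osteoblast markers was 2451 to 4827 in LoF, 31020 and 33372 in GoF and 20124 and 22381 in WT. Of the 12, 11 were higher in GoF than in LoF, against 5.97% of all tested genes. Summed FPKM of 10 markers of hypertrophic chondrocytes was 12322 to 16892 in LoF, 2428 and 3325 in GoF and 5485 and 6935 in WT. In GoF against LoF 5 of the 10 (50%) were higher (Alpl, Ihh, Panx3, Mef2c and Phospho1), against 5.97% of all tested genes. The abundant Mmp13 and Spp1, 2 of the 10 (20%), were lower, against 5.68%. Col10a1, the marker whose promoter drives the Cre, did not pass and was at 9.61 to 114 FPKM in LoF, 177 and 189.6 in GoF and 6.24 and 20.5 in WT. Myeloid and osteoclast markers summed to 93.5 to 154 FPKM over all 8 libraries, with Ctsk alone at 53.0 to 77.8. Of the 6 tested, 1 (16.7%) was higher in GoF than in LoF and 1 (16.7%) lower, against 5.97% and 5.68% of all tested genes. Acp5 was higher (1.08 to 6.99 FPKM in LoF, 22.3 and 17.6 in GoF, 3.23 and 5.30 in WT). Fcer1g was lower (9.35 to 52.9 FPKM in LoF, listed at 0 and at 2.63 in GoF, 1.48 and 23.0 in WT). Erythroid markers summed to 76.0 to 2274 FPKM in LoF, 896 and 1838 in GoF and 2559 and 10573 in WT, and endothelial markers to 62.7 in LoF library 3 against at most 9.19 in the other libraries. Xist was present in both WT libraries and in LoF 1 and LoF 4, and Y-linked transcripts in both GoF libraries and in LoF 2 and LoF 3, so sex and genotype cannot be told apart between GoF and WT. The part of cell makeup in the results below was not tested, and in pools of cells fewer cells of a type and less RNA per cell cannot be told apart.

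The promoters of genes in both branches are known to combine SREBP sites with boxes for NF-Y and Sp1, and 5 are shown here. They are Hmgcs1, an early sterol enzyme whose values overlapped between groups, and 4 members with higher values in GoF than in LoF. Of these 4, Sc5d and Fads2 passed the test described below, and Msmo1 and Cyp51 did not. The choice was made by hand, and members with lower values in GoF, such as Nsdhl, are not shown. Each run holds the 200 bases before the RefSeq start (GRCm38.p6), 5′ to 3′ on the strand of the gene, with matches to TCACNCCAC (sterol regulatory element), CCAAT (NF-Y box) and GGGCGG (Sp1 box) on either strand in capitals. The positions are chr13:119690151-119690350 on the plus strand and, on the minus strand, chr8:64733579-64733778, chr5:4104698-4104897, chr9:42264301-42264500 and chr19:10101504-10101703.
Hmgcs1: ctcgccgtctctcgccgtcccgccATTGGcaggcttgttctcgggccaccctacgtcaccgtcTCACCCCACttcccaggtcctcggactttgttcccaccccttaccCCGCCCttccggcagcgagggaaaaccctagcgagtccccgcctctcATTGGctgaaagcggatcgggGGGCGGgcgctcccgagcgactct
Msmo1: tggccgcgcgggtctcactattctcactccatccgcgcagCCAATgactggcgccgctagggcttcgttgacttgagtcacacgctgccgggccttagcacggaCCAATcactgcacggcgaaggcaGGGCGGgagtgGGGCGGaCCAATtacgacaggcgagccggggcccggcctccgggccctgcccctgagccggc
Cyp51: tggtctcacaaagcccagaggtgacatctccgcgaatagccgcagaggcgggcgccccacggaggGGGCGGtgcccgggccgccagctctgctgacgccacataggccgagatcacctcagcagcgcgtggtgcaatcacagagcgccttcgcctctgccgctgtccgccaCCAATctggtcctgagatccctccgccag
Sc5d: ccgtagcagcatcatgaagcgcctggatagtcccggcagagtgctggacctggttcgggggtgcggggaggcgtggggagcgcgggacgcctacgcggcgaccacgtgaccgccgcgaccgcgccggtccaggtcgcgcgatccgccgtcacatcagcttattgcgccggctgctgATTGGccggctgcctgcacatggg
Fads2: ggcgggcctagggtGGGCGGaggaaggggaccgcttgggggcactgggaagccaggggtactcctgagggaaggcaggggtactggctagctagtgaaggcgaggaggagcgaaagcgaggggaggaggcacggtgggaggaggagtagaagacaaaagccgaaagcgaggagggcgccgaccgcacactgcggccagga

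RefSeq entries were found for 23 of the 30 members. The promoter set used here held none for Stard4, Fdps, Sqle, Fdft1, Scd1, Scd2 and Fads1, so their promoters were not searched. In the 250 bases before the start, TCACNCCAC was found in 1 of the 23 members, Hmgcs1, where it reads TCACCCCAC at 137 bases before the start, and in 1.05% of 32851 promoters of the same length. Some members have more than 1 entry, 29 in all. CCAAT was found in 19 of these 29 entries (18 of the 23 members) and in 33.8% of all promoters, and GGGCGG in 20 of the 29 (18 members) and in 32.7%, with no letters shared between the 3 motifs where they stand in the runs above. Hmgcs1 had all 3 motifs and Msmo1 had 3 CCAAT boxes, at 55, 96 and 160 bases before the start. The Fads2 promoter held GGGCGG at 186 bases and no CCAAT, and that of Sc5d held CCAAT in reverse, as ATTGG, at 24 bases. Sc5d also held GGGCGG at 241 bases and its reverse, CCGCCC, at 205 bases, which begin before the run shown. For Hmgcs1 and Sc5d, the bases just after the start were not found in the reference transcripts searched, while for Msmo1, Cyp51 and Fads2 they were. Such matches describe the letters only.

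In WT, 19 of the 30 members stood above the median of the tested genes, and the others did not. The median of the WT means was 5.74 FPKM over the 29 tested members and 4.32 over all tested genes. Fdps was the highest, at 28.0 and 43.7 FPKM, followed by Fads2 at 31.9 and 27.7, Scd2 at 29.4 and 19.8 and Fads1 at 18.6 and 18.8. The libraries of Fdps, Fads2 and Scd2 overlap, so their order is within the spread, while both Fads1 values lie below all of them. Insig1, Msmo1, Hmgcs1, Pmvk and Acly followed between 10.8 and 14 FPKM as means, and Stard4 was lowest, at 0.238 and 0.803. These are FPKM levels, which divide by length.

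**Figure D1:**
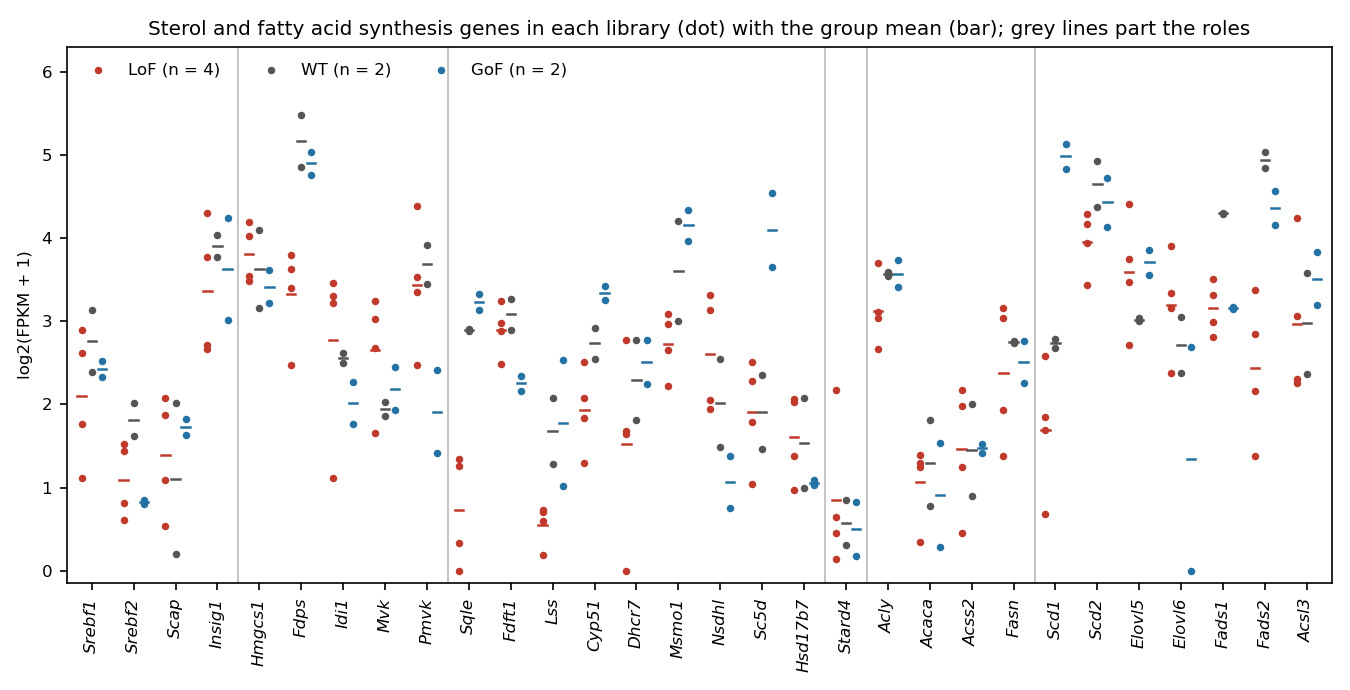
Each dot is a library, placed by its level as log2(FPKM + 1), and each bar a group mean (LoF red, n = 4; WT grey, n = 2; GoF blue, n = 2), for the 30 members in order of role: SREBP control, mevalonate to farnesyl diphosphate, squalene to cholesterol, the sterol carrier Stard4, acetyl-CoA and palmitate, and desaturation, elongation and activation. The GoF dots of Scd1, at 27.4 and 34.2 FPKM, stand above all other libraries, and the LoF dots of Sqle, at 0 to 1.55 FPKM, below all others.

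GoF against LoF sets the opposite alleles of Ctnnb1 against each other. In GoF the desaturases Scd1 and Fads2 and the sterol enzymes Sqle, Sc5d and Fdps were higher, by 3.02-fold to 11.9-fold as ratios of mean FPKM, and no member was lower. These 5 are 17.2% of the 29 tested members, where 5.97% of all tested genes were called higher and 5.68% lower (limma on log2(FPKM + 1), Benjamini-Hochberg adjusted p under 0.05). Libraries did not overlap for 8 members that were higher in GoF (27.6% of 29, against 14.8% of all genes) and 3 that were lower (10.3%, against 18.7%). At an unadjusted p under 0.05 there were 8 higher (27.6%, against 11.3% of all genes) and 3 lower (10.3%, against 14%), the latter below the share of all genes. The median log2 fold change of the members was 0.26, with 19 of 29 above 0, and that of all tested genes was -0.17. The latter moved to -0.05 with median ratio scaling, which put the members at 0.42.

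The genes of SREBP control did not pass in any comparison. Srebf1, the factor that favours fatty acid genes, was at 2.38, 1.17, 6.44 and 5.13 FPKM in LoF, 4.02 and 4.76 in GoF and 7.83 and 4.24 in WT. Srebf2, which favours sterol genes, was at 0.523 to 1.87 FPKM in LoF, 0.808 and 0.745 in GoF and 3.04 and 2.07 in WT, so both WT libraries lay above all 6 mutant libraries. Its log2 fold change was -0.72 for LoF against WT (SE 0.46, adjusted p = 0.558) and -0.99 for GoF against WT (SE 0.53, adjusted p = 0.456). Between GoF and LoF the log2 differences of Srebf1, Scap and Insig1 were 0.33 (95% interval -0.94 to 1.60), 0.33 (-1.08 to 1.75) and 0.26 (-0.97 to 1.49). The scale of log2(FPKM + 1) understates changes of low genes, so for none of these genes do the intervals exclude a 2-fold change in either direction. Insig1, itself a target of SREBP, ranged from 5.37 to 18.7 FPKM within LoF alone and its groups overlapped in all 3 comparisons. These are transcript levels, and the cleavage that activates the SREBP proteins was not measured.

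Of the enzymes from mevalonate to farnesyl diphosphate, 1 of 5 tested (20%) was higher in GoF than in LoF. These are Mvk, Pmvk, Idi1 and Fdps, with Hmgcs1, which acts before mevalonate, counted in. The share of all tested genes was 5.97%. Fdps (ENSMUSG00000059743.12, chromosome 3, 89093588 to 89101959, mm10) makes farnesyl diphosphate, the branch point to sterols and to protein prenylation. It was at 4.56, 9.56, 11.4 and 12.9 FPKM in LoF (9.61 ± 3.64, SD, n = 4), 31.9 and 26.2 in GoF (29.0 ± 4.06, SD, n = 2) and 28.0 and 43.7 in WT (35.9 ± 11.1, SD, n = 2). All 4 LoF libraries lay below the other 4. The log2 fold change of GoF over LoF was 1.58 (SE 0.42, limma adjusted p = 0.0387), a 3.02-fold ratio of means, and that of LoF over WT was -1.84 (SE 0.42, adjusted p = 0.0736). The GoF against LoF call ended without LoF library 2 (adjusted p = 0.0676) and with sex as a covariate (adjusted p = 0.137). It also ended without the filter, without the trend, with the replicate number as a block or with only the groups compared (adjusted p 0.0575 to 0.0687). The same held without GoF library 1 or 2, or WT library 1 or 2 (log2 1.44 to 1.71).

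Its neighbours in the pathway did not pass the test in any comparison, apart from Pmvk under 1 alternative. Hmgcs1 (ENSMUSG00000093930.1, chromosome 13, 119690462 to 119708086), which condenses acetyl groups at the entry, was at 10.2, 10.7, 15.2 and 17.3 FPKM in LoF, 11.2 and 8.33 in GoF and 16.1 and 7.95 in WT, and overlapped throughout (GoF over LoF log2 -0.39, 95% interval -1.29 to 0.51). Mevalonate kinase, Mvk, was at 2.15 to 8.49 FPKM in LoF, 2.82 and 4.45 in GoF and 2.62 and 3.07 in WT. Pmvk, the next kinase, went the other way from Fdps in value: it was at 4.57, 9.21, 20.0 and 10.6 FPKM in LoF, 4.31 and 1.67 in GoF and 9.96 and 14.1 in WT, with both GoF libraries below all others. The log2 fold change was -1.53 against LoF (SE 0.55, adjusted p = 0.111) and -1.77 against WT (SE 0.63, adjusted p = 0.221). Without LoF library 1, Pmvk passed as lower in GoF than in LoF (log2 -1.85, adjusted p = 0.0470). Idi1, the isomerase that supplies the allylic substrate of Fdps, was at 1.17 in LoF library 1 and 8.29 to 9.97 FPKM in the other LoF libraries, 2.40 and 3.84 in GoF and 4.67 and 5.15 in WT.

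From squalene to cholesterol, with squalene synthase (Fdft1) counted in, 2 of 9 tested enzymes (22.2%) were higher in GoF than in LoF and none was lower. Of all tested genes, 5.97% were higher and 5.68% lower. Sqle (ENSMUSG00000022351.14, chromosome 15, 59315077 to 59331192) encodes squalene epoxidase, a slow and regulated step. It was at 0.257, 1.39, 0 and 1.55 FPKM in LoF (0.799 ± 0.784, SD, n = 4), 9.07 and 7.79 in GoF (8.43 ± 0.905, SD, n = 2) and 6.40 and 6.49 in WT. The LoF libraries were all below 2 FPKM and the other 4 all above 6. GoF exceeded LoF by 10.6-fold in mean FPKM and by 2.50 on the log2 scale (SE 0.52, limma adjusted p = 0.0128). The call ended with a pseudocount of 0.1 (adjusted p = 0.0575) and with the replicate number as a block (adjusted p = 0.0595). It also ended without GoF library 1 (log2 2.40) or GoF library 2 (log2 2.60). Against WT, LoF was 8.07-fold lower in mean FPKM without passing (log2 -2.16, SE 0.52, adjusted p = 0.0899).

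Sc5d (ENSMUSG00000032018.13, chromosome 9, 42254177 to 42264300), a sterol desaturase late in the pathway, had another pattern. It was at 2.45, 1.06, 3.88 and 4.71 FPKM in LoF (3.02 ± 1.61, SD, n = 4), 22.2 and 11.6 in GoF (16.9 ± 7.55, SD, n = 2) and 1.75 and 4.11 in WT (2.93 ± 1.67, SD, n = 2). GoF stood above both other groups, which overlapped. GoF exceeded LoF by 5.59-fold in mean FPKM (log2 2.19, SE 0.55, limma adjusted p = 0.0303) and WT by 5.77-fold (log2 2.19, SE 0.64, adjusted p = 0.122). The call against LoF ended without LoF library 1 or 2 (adjusted p = 0.0549 and 0.0555) and with sex as a covariate (adjusted p = 0.0583). It also ended with a pseudocount of 0.1, without the filter or with the replicate number as a block (adjusted p 0.0521 to 0.0685). The same held without GoF library 1 or 2 (log2 1.74 and 2.63).

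Msmo1, Cyp51 and Lss had values higher in GoF without overlap and did not pass. Msmo1, the oxidase that starts removal of the methyl groups at carbon 4, was at 3.65 to 7.52 FPKM in LoF, 19.3 and 14.7 in GoF and 7.05 and 17.5 in WT (GoF over LoF log2 1.42, SE 0.45, adjusted p = 0.0719). Cyp51 (lanosterol demethylase) was at 3.24, 2.57, 1.46 and 4.70 FPKM in LoF, 8.54 and 9.75 in GoF and 4.87 and 6.56 in WT, and was the one member that ordered LoF, WT and GoF without overlap apart from Sqle and Scd1. Its log2 fold change of GoF over LoF was 1.41 (SE 0.46, adjusted p = 0.0807), and it passed with median ratio scaling (log2 1.54, adjusted p = 0.0497). The locus overlaps Akap9, which reached 29.1 FPKM, and the libraries do not mark strand, so shared reads cannot be told apart. Lss, lanosterol synthase, was at 0.136 to 0.657 FPKM in LoF, 4.78 and 1.03 in GoF and 3.22 and 1.44 in WT.

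Other enzymes of the same stretch had lower values in GoF. Squalene synthase, Fdft1, was at 4.59 to 8.49 FPKM in LoF, 3.47 and 4.09 in GoF and 6.45 and 8.65 in WT, with a log2 difference of GoF over LoF of -0.64 (95% interval -1.54 to 0.25), in a locus that overlaps Ctsb (up to 137 FPKM). Nsdhl, which removes the oxidised carbon and lies on the X chromosome, was at 2.84, 3.14, 7.76 and 8.96 FPKM in LoF, 0.681 and 1.60 in GoF and 4.87 and 1.81 in WT (GoF over LoF log2 -1.55, SE 0.58, adjusted p = 0.126). Within LoF, the libraries with Xist held 2.84 and 8.96 and those with Y-linked transcripts 3.14 and 7.76. Hsd17b7 and Dhcr7, the reductase of the last step, overlapped between all groups, at 0.961 to 3.23 and at 0 to 5.87 FPKM. Stard4 was at 0.102 to 0.571 in 3 LoF libraries and 3.52 in LoF library 1, 0.132 and 0.773 in GoF and 0.238 and 0.803 in WT.

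Summed over the 9 genes from squalene to cholesterol, FPKM was 24.3 to 44.8 in LoF, 75.0 and 55.3 in GoF and 41.5 and 52.3 in WT. LoF and WT overlapped in this sum, and both GoF libraries lay above the rest. The sum over the 5 genes from mevalonate to farnesyl diphosphate was 25.9 to 62.0 in LoF, 52.6 and 44.4 in GoF and 61.4 and 74.0 in WT, with overlap between LoF and both other groups. Over all 30 members the sum was 129 to 233 in LoF, 266 and 249.8 in GoF and 256 and 261 in WT. A sum is set mostly by its most abundant genes.

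**Figure D2:**
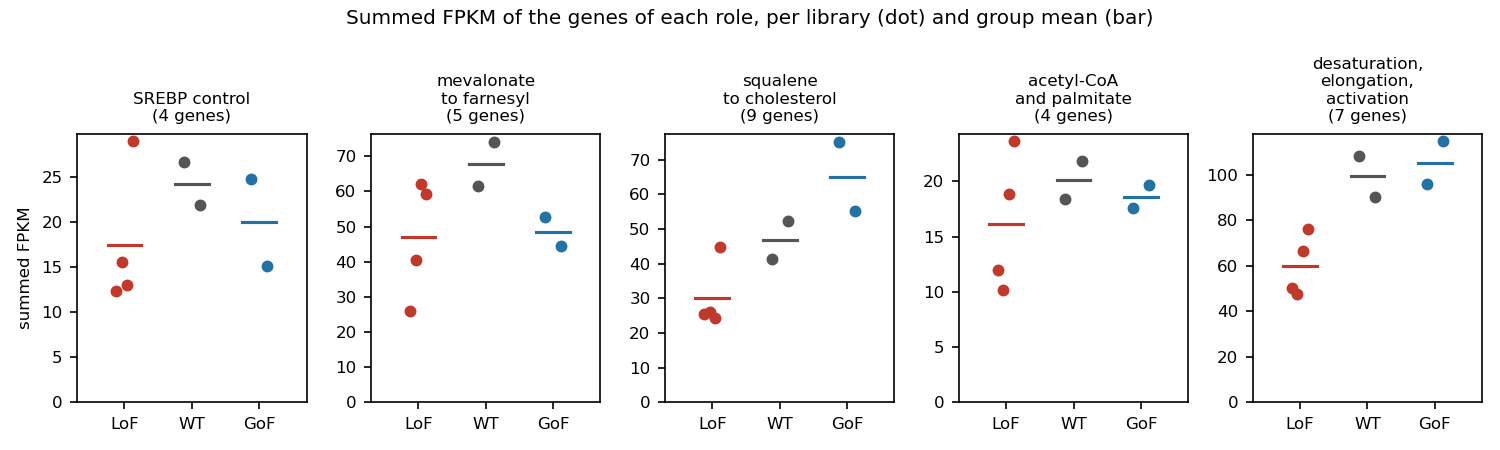
Summed FPKM of the genes of each role in each library (dots) with the group mean (bars), for LoF (n = 4), WT (n = 2) and GoF (n = 2), each axis starting at 0. LoF lies below both other groups in the sum for desaturation, elongation and activation (47.4 to 75.9 FPKM), and overlaps them for SREBP control and for acetyl-CoA and palmitate.

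The enzymes that make acetyl-CoA and palmitate did not differ detectably between GoF and LoF. ATP citrate lyase, Acly, was at 7.61, 5.33, 7.20 and 12 FPKM in LoF, 9.66 and 12.3 in GoF and 11.1 and 10.6 in WT (GoF over LoF log2 0.45, 95% interval -0.43 to 1.32). Fatty acid synthase, Fasn, was at 1.60, 2.82, 7.92 and 7.21 FPKM in LoF, 5.80 and 3.79 in GoF and 5.79 and 5.68 in WT (log2 0.14, interval -1.13 to 1.40). Acetyl-CoA carboxylase, Acaca, was at 0.274 to 1.63 FPKM in LoF, 0.217 and 1.89 in GoF and 0.717 and 2.52 in WT, and Acss2, which activates acetate, at 0.373 to 3.52 in LoF, 1.88 and 1.67 in GoF and 0.867 and 3.03 in WT. Groups overlapped for all 4 in each comparison. The intervals for Fasn, Acaca and Acss2 include changes of 2-fold in either direction.

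Among desaturation, elongation and activation, 2 of 7 tested genes (28.6%) stood higher in GoF than in LoF, against 5.97% of all tested genes. Scd1 (ENSMUSG00000037071.2, chromosome 19, 44394451 to 44407709), a stearoyl-CoA desaturase that makes monounsaturated fatty acids, was at 2.59, 4.98, 2.22 and 0.603 FPKM in LoF (2.60 ± 1.80, SD, n = 4), 27.4 and 34.2 in GoF (30.8 ± 4.78, SD, n = 2) and 5.91 and 5.42 in WT (5.66 ± 0.348, SD, n = 2). The groups formed 3 levels without overlap. GoF exceeded LoF by 11.9-fold in mean FPKM (log2 3.29, SE 0.52, limma adjusted p = 0.00347) and WT by 5.44-fold without passing (log2 2.25, SE 0.61, adjusted p = 0.0944). The call against LoF ended without GoF library 1 (adjusted p = 0.0632) or GoF library 2 (adjusted p = 0.0729) and held in the other 14 alternatives.

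Scd2, another desaturase of the same family, lies on the same chromosome (44293676 to 44306864) and did not pass. It was at 18.5, 9.81, 14.4 and 17.0 FPKM in LoF, 16.5 and 25.5 in GoF and 29.4 and 19.8 in WT, with a log2 difference of GoF over LoF of 0.47 (95% interval -0.36 to 1.30). Within a library the FPKM ratio of Scd1 to Scd2 was 0.140, 0.507, 0.154 and 0.0355 in LoF, 0.201 and 0.274 in WT and 1.66 and 1.34 in GoF. Scd1 was thus the more abundant of the pair in both GoF libraries and the less abundant in the other 6. This ratio and the others given here were chosen after the values were seen and carry no test.

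Fads2 and Fads1 encode the desaturases that start and continue the synthesis of long polyunsaturated fatty acids, and both lie on chromosome 19. Fads2 (ENSMUSG00000024665.7, 10064164 to 10101503) was at 3.48, 1.61, 9.42 and 6.18 FPKM in LoF (5.17 ± 3.40, SD, n = 4), 16.9 and 22.6 in GoF (19.8 ± 4.04, SD, n = 2) and 31.9 and 27.7 in WT (29.8 ± 2.92, SD, n = 2), in 3 levels without overlap and with WT on top. GoF exceeded LoF by 3.83-fold in mean FPKM (log2 1.92, SE 0.53, limma adjusted p = 0.0415), and LoF was 5.76-fold below WT (log2 -2.50, SE 0.53, adjusted p = 0.0552). The call ended without any 1 of LoF libraries 1, 2 and 4 (adjusted p 0.0510 to 0.0737) and with sex as a covariate (adjusted p = 0.103). It also ended with a pseudocount of 0.1, without the filter, without the trend or with only the groups compared (adjusted p 0.0548 to 0.0871). The same held without any 1 of the GoF and WT libraries (log2 1.72 to 2.12). Fads1 (10182888 to 10196870) was at 6.93, 10.4, 8.95 and 6.04 FPKM in LoF, 8.02 and 7.90 in GoF and 18.6 and 18.8 in WT. Both mutant groups lay below WT, by log2 -1.14 in LoF (SE 0.36, adjusted p = 0.183) and -1.13 in GoF (SE 0.41, adjusted p = 0.230), and GoF and LoF differed by 0.01 (95% interval -0.79 to 0.80). The ratio of Fads2 to Fads1 was 0.155 to 1.05 in LoF, 2.11 and 2.87 in GoF and 1.71 and 1.48 in WT.

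The elongases and the activating enzyme did not pass. Elovl6, which lengthens palmitate, was at 9.17, 4.20, 14 and 7.94 FPKM in LoF, listed at 0 and at 5.44 in GoF and at 4.21 and 7.27 in WT (GoF over LoF log2 -1.85, SE 0.72, adjusted p = 0.137). Elovl5, which lengthens polyunsaturated chains, was at 5.58 to 20.3 FPKM in LoF, 13.5 and 10.8 in GoF and 7.21 and 7.02 in WT. Acsl3, which couples fatty acids to coenzyme A, was at 3.76 to 17.9 FPKM in LoF, 13.2 and 8.14 in GoF and 11.0 and 4.17 in WT.

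**Figure D3:**
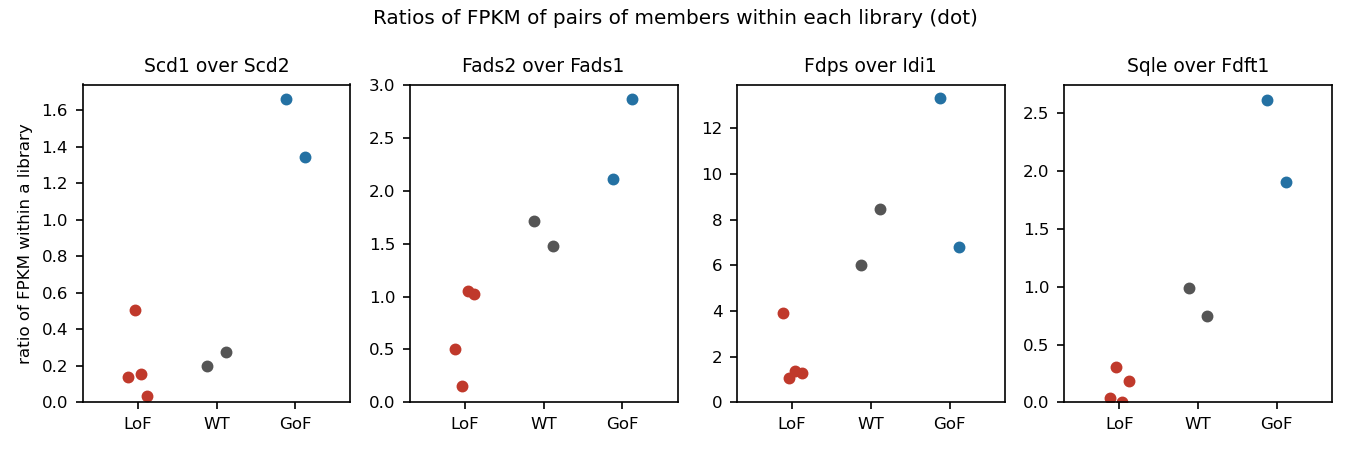
Ratios of FPKM between pairs of members within each library (dots) for LoF (n = 4), WT (n = 2) and GoF (n = 2), each axis starting at 0. Scd1 over Scd2 is above 1 in the GoF libraries alone, at 1.66 and 1.34, while Fads2 over Fads1, Fdps over Idi1 and Sqle over Fdft1 are higher in all 4 GoF and WT libraries than in any LoF library.

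Within libraries, Fdps stood at 3.89, 1.08, 1.37 and 1.30 times Idi1 in LoF, 13.3 and 6.81 times in GoF and 6 and 8.49 times in WT. Sqle stood at 0 to 0.304 times Fdft1 in LoF, 2.62 and 1.91 times in GoF and 0.993 and 0.750 times in WT. Both ratios were lower in all 4 LoF libraries than in all GoF and WT libraries. LoF library 1, where Idi1 was low, gave the highest LoF ratio of Fdps to Idi1.

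LoF against WT asks what the loss of β-catenin changes relative to cells with the intact gene. No member was called in either direction (limma), where 0.566% of all tested genes were called higher and 0.667% lower, and at an unadjusted p under 0.05 there were 0 higher, against 7.67% of all genes, and 4 lower (Sqle, Fdps, Fads1 and Fads2, 13.8% of 29, against 5.72%). Libraries did not overlap for 9 members that were lower in LoF, 31% of 29, against 9.88% of all genes: Srebf2, Sqle, Fdps, Lss, Cyp51, Scd1, Scd2, Fads1 and Fads2. No member was higher without overlap, against 11.5% of all genes. The median log2 fold change was -0.38 for the members and 0.06 for all genes. Fads2 and Fdps passed as lower in LoF with median ratio scaling (adjusted p = 0.0303 and 0.0381), and Fads2 passed without LoF library 3 (adjusted p = 0.0370).

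GoF against WT asks what stabilised β-catenin changes. No member was called (limma), where 1.41% of all genes were called higher and 0.9% lower, and at an unadjusted p under 0.05 there were 2 higher (Scd1 and Sc5d, 6.9% of 29, against 7.27% of all genes) and 2 lower (Pmvk and Fads1, 6.9%, against 7.08%), shares near those of all genes. Libraries did not overlap for 5 members that were higher (17.2% of 29, against 21.8% of all genes) and 7 that were lower (24.1%, against 26.2%), shares near those of all genes. The 5 were Sqle, Cyp51, Sc5d, Scd1 and Elovl5, and the 7 were Srebf2, Fdft1, Idi1, Nsdhl, Pmvk, Fads1 and Fads2. This comparison shares its WT libraries with LoF against WT and its GoF libraries with GoF against LoF. Side by side, the log2 fold changes against WT were -2.16 in LoF and 0.34 in GoF for Sqle, -1.84 and -0.27 for Fdps, -2.50 and -0.58 for Fads2, -1.04 and 2.25 for Scd1 and 0.00 and 2.19 for Sc5d.

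**Figure D4:**
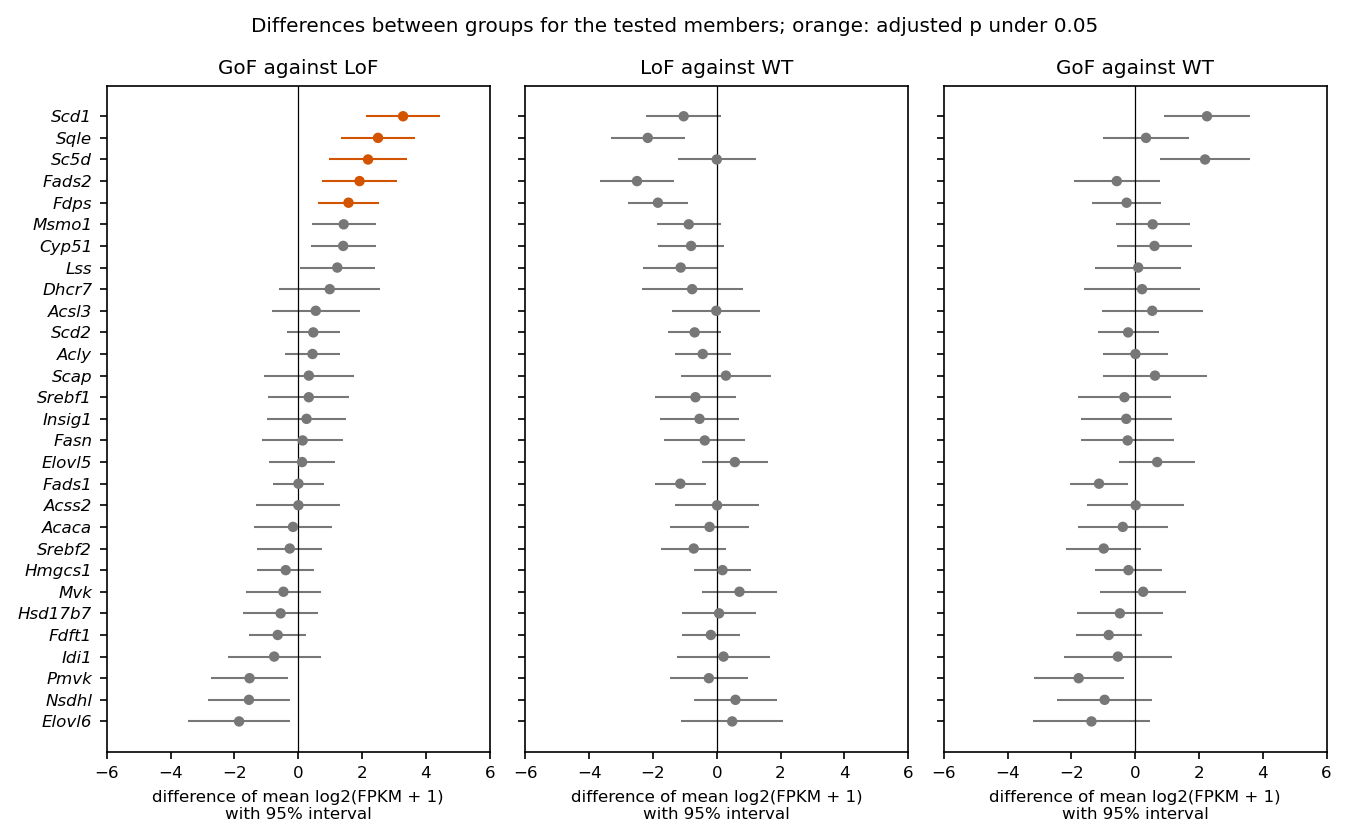
Differences of mean log2(FPKM + 1) with 95% intervals from limma for the 29 tested members, sorted by GoF against LoF, in 3 comparisons that share libraries in pairs. Orange marks an adjusted p under 0.05, which 5 members reach in GoF against LoF (1.58 to 3.29) and none in the other panels.

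Other genes of the pathways were taken from lists by name. Of 7 tested genes of SREBP processing and degradation, 0 passed in GoF against LoF (limma, with 1 higher and 1 lower at an unadjusted p under 0.05).

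Of 17 tested further genes of fatty acid synthesis, 2 (11.8%) were higher in GoF than in LoF and 0 lower. The shares of all tested genes were 5.97% and 5.68%. Me1, malic enzyme, which supplies NADPH, was at 0.535, 5.08, 0.197 and 3.46 FPKM in LoF, 48.7 and 42.6 in GoF and 7.43 and 2.54 in WT (GoF over LoF log2 4.13, SE 0.70, limma adjusted p = 0.00467). The Me1 call ended without GoF library 1 or 2 (log2 4.04 and 4.225) and with the replicate number as a block (adjusted p = 0.0578). Tecr, the reductase of the elongation cycle, was at 63.8 to 123 FPKM in LoF, 174 and 218 in GoF and 116 and 132 in WT (log2 1.09, SE 0.31, adjusted p = 0.0487). The Tecr call ended without LoF library 1 or 2 (adjusted p = 0.0825 and 0.0920) or any 1 of the GoF and WT libraries (log2 0.92 to 1.25). It also ended with sex as a covariate (adjusted p = 0.0979). The same held with a pseudocount of 0.1, without the filter, without the trend or with only the groups compared (adjusted p 0.0541 to 0.126). Of 7 tested genes of glycerolipid synthesis 0 passed in GoF against LoF (limma, with 0 higher and 1 lower at an unadjusted p under 0.05).

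Of 10 tested genes of sterol uptake and transport, 1 (10%) was higher in GoF than in LoF and 1 (10%) lower. The shares of all tested genes were 5.97% and 5.68%. Gramd1b, a carrier of sterol between membranes, was higher in GoF than in LoF (0 to 0.458 FPKM in LoF, 10.6 and 5.64 in GoF, 3.77 and 0.240 in WT, log2 2.84, SE 0.58, limma adjusted p = 0.0115). That call ended without GoF library 1 or 2 (adjusted p = 0.151 and 0.0653). Lipa, the lysosomal lipase that frees cholesterol from its esters, was lower (8.97 to 15.2 FPKM in LoF, listed at 0 and at 1.31 in GoF, 9.81 and 5.75 in WT, log2 -3.12, SE 0.47, adjusted p = 0.00276), and it was also lower than in WT (log2 -2.49, SE 0.55, adjusted p = 0.0474). The latter ended without any 1 of the LoF libraries (adjusted p 0.0557 to 0.0722) and without any 1 of the GoF and WT libraries (log2 -3.09 to -1.89). It also ended with sex as a covariate (adjusted p = 0.251), the replicate number as a block (adjusted p = 0.143) or only the groups compared (adjusted p = 0.203). The same held with a pseudocount of 0.1, without the filter or with quantile normalization (adjusted p 0.0568 to 0.0892).

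Of 8 tested genes of sterol efflux and esterification, 1 (12.5%) was higher in GoF than in LoF and 0 lower, against 5.97% and 5.68% of all tested genes. It was Nceh1, a cholesteryl ester hydrolase (0 to 0.821 FPKM in LoF, 3.22 and 10.1 in GoF, 3.06 and 0.273 in WT, log2 2.23, SE 0.61, limma adjusted p = 0.0414). The Nceh1 call ended without any 1 of the LoF libraries (adjusted p 0.0629 to 0.0718) and without GoF library 1 or 2 (log2 2.93 and 1.53). It also ended with sex as a covariate (adjusted p = 0.0916) or the replicate number as a block (adjusted p = 0.196). The same held with a pseudocount of 0.1 or without the filter (adjusted p = 0.104 and 0.0980). Of 9 tested genes of fatty acid oxidation, 1 (11.1%) was lower in GoF than in LoF, against 5.68% of all tested genes. The same gene was the 1 called higher in LoF than in WT (11.1%, against 0.566%). Acadm, a dehydrogenase of medium-chain acyl groups, was lower in GoF than in LoF (40.6 to 57.5 FPKM in LoF, 18.4 and 13.7 in GoF, 12.5 and 12.6 in WT, log2 -1.60, SE 0.29, adjusted p = 0.00674) and higher in LoF than in WT (log2 1.92, SE 0.29, adjusted p = 0.0187). The first call ended without GoF library 2 (log2 -1.40) and with the replicate number as a block (adjusted p = 0.0623). The second ended without LoF library 2 (adjusted p = 0.0561) or any 1 of the GoF and WT libraries (log2 1.91 to 1.92). It also ended with sex as a covariate (adjusted p = 0.127). The same held with the replicate number as a block, without the trend or with only the groups compared (adjusted p 0.0556 to 0.143).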

How the data were processed

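Pools of 70 cells were amplified with Smart-seq2, a method that does not mark strand (per the labels' protocols). Values are FPKM as the authors deposited them. The submitters' processing notes name mm10, Cufflinks, HISAT2, HTSeq and SAMtools 0.1.18 without role or order, and the annotation release is not given in the sources used here. Of 48555 lines, 65 repeated a gene ID with identical values and were dropped. Groups came from the labels. Genes reaching FPKM 1 in 2 or more of the 8 libraries were tested as log2(FPKM + 1), which understates the change of low genes, in R 4.3.3 with limma 3.58.1: a mean for each group, a mean-variance trend, two-sided, Benjamini-Hochberg over 12888 genes. Intervals (95%) use limma's SE and 10.09 degrees of freedom. The code was tested on simulated data.

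Members, lists, motifs and settings were chosen with earlier results of these data known. All members are named, with the called genes of each other list (up to 4 per comparison, lowest adjusted p first) and Ctnnb1 and Axin2. Some results for genes outside the members are not reported here. The alternatives were a pseudocount of 0.1, no filter, median ratio scaling, quantile normalization, no trend, the replicate number as a block, only the groups compared, leaving out each library and, added after the data were seen, sex (Xist or Y-linked transcripts) as a covariate.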

Additional observations from a re-analysis of the deposited data

Results flagged for a closer look

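Among the members, 30 sets of 4 LoF values were checked for a library far from the other 3, by Dixon's 95% critical value for the gap over the range, on the log2(FPKM + 1) scale used for the tests, and 2 met it, where chance alone marks about 5% of such sets. Idi1 was at 1.17 FPKM in LoF library 1, and its gap to the other 3 was 0.898 of the range on the log2 scale and 0.809 on the FPKM scale. Acaca was at 0.274 FPKM in LoF library 3, and its gap was 0.858 of the range on the log2 scale and 0.810 on the FPKM scale. On the FPKM scale neither met the criterion, and 1 other set did: Stard4, at 3.52 FPKM in LoF library 1 (gap 0.863, and 0.749 on the log2 scale).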

How the results depend on the processing

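None of the 87 member results reversed in 16 alternatives, while 78 of the 1392 values, in 24 members, changed sign where no test had passed. Members called in GoF against LoF numbered 5, and 2 with a pseudocount of 0.1, 2 without the filter, 3 without the trend, 3 with only the groups compared, 2 with sex as a covariate, 6 with either scaling and 0 to 5 without one library. In LoF against WT they numbered 0, and 2 with median ratio scaling, 2 with quantile normalization and 0 to 1 without one library. In GoF against WT they numbered 0 in all 16. Over all genes, the 298 calls of GoF against WT became 0 with only the groups compared, 11 with sex as a covariate and 39 to 332 without one library, and their split of 182 higher and 116 lower became 112 and 127 with a pseudocount of 0.1. The 159 of LoF against WT became 83 with a pseudocount of 0.1, 53 without the filter, 54 without the trend, 0 with only the groups compared, 14 with sex as a covariate and 0 to 135 without one library, and their split of 73 higher and 86 lower became 78 and 146 with quantile normalization. The 1501 of GoF against LoF became 974 with sex as a covariate and 429 to 1369 without one library. Scd1 kept its call in 14 of 16 alternatives, Sqle in 12, Sc5d in 8, Fdps in 6 and Fads2 in 4. The cause of these changes was not tested. A fit without 1 GoF or WT library assumes that the one left varies like the other groups. Same-numbered libraries did not deviate together (correlations -0.0069 to 0.0303). Such correlations cannot tell whether these libraries share an origin or a batch. With the replicate number as a block, 15, 1 and 727 genes were called in GoF against WT, LoF against WT and GoF against LoF, with 0, 0 and 2 members (Scd1, adjusted p = 0.0351, and Fads2, adjusted p = 0.0380). With 2 GoF and 2 WT libraries and unknown read totals, small differences of members at low FPKM were not detectable.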
